A study of Mus musculus with 8 samples.

Results

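The solute carrier genes were taken as all genes named Slc with a family number, or Slco, that held a peak in at least 1 of 4 lists of m6A-enriched RNA from mouse gastrocnemius, a calf muscle. There were 109 such genes among 5987 genes with a peak, and they held 572 peaks. Overlapping peaks (1 base or more, same strand) were linked into regions, of which 205 of 13116 lay in solute carrier genes. RefSeq (GRCm38.p6) lists 389 protein-coding genes with such a name, so 28.02% of them were called, against 25.4% of all protein-coding genes, and 36 of 52 families had a called member. The name rule also took in Slc9a3r2, which is a scaffold protein that binds a sodium-proton exchanger and not a transporter itself. It was kept in all counts.

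The muscles came from 10-week-old male C57BL/6 mice. In the denervated group the gastrocnemius had been without its nerve for 14 days, and the innervated group was the untreated muscle of the opposite leg. Each group had 2 immunoprecipitated libraries, called innervated 1 and 2 and denervated 1 and 2, each with an input library. The labels give no engineered allele, and whether replicates 1 and 2 come from different animals is not stated, so p-values and spreads describe these samples and may be technical.

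Solute carriers are membrane proteins that move sugars, amino acids, ions, metals, nucleotides and lipids across the plasma membrane or into organelles. In skeletal muscle they bring in glucose and fatty acids, let lactate out, and exchange metabolites and nucleotides with mitochondria. N6-methyladenosine, or m6A, is a methyl mark on adenosines of messenger RNA, found most often near stop codons and in the adjoining 3′ part of the transcript. It is laid down by a methyltransferase complex and read by proteins that affect the stability and translation of the transcript.

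The 4 lists held between 9327 and 10300 peaks, and that of innervated 2 was the longest. The lists give no read counts, so the depth of each library is unknown. A gene without a peak is therefore not shown to be unmethylated, and a difference in calls cannot be told apart from a difference in transcript level, nor fewer cells of a type from less RNA per cell. None of 11 skeletal muscle markers, such as Acta1 and Ckm, carried a peak in any list, so the tissue label could not be checked from peaks. Of markers of other cells, 3 of 4 endothelial, 3 of 3 fibroblast, 2 of 5 Schwann cell and 1 of 3 adipocyte genes had a peak, and 0 of 3 macrophage and 0 of 3 erythroid genes did. Ngfr, a neurotrophin receptor of denervated Schwann cells, was the only one of these called in both denervated lists and in neither innervated list. Its part in the calls of solute carriers was not tested.

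Solute carrier genes recurred in every library less often, as a share, than the other called genes. A peak was present in all 4 libraries for 38 of 109 genes, or 34.9% (95% Wilson interval 26.6 to 44.2%, counting error only), beside 48.8% of all called genes. Among the other 5878 genes the share was 49.1%. The remaining solute carrier genes were spread over the classes in similar numbers, with 26 in 1 library, 22 in 2 and 23 in 3. These were 23.9%, 20.2% and 21.1% of the members, against 19.5%, 14.95% and 16.5% of the other genes. The share was also lower when genes were grouped by their number of regions, but by less than the counting error. Of genes with 1 region, 26.4% of solute carriers (14 of 53) and 37.9% of other genes were in all 4 libraries. With 2 regions the shares were 39.4% (13 of 33) and 52.6%, and with 3 or more regions they were 47.8% (11 of 23) and 62.4%. The 95% Wilson intervals of the solute carrier shares were 16.4 to 39.6%, 24.7 to 56.3% and 29.2 to 67.0%. Each held the share of the other genes. Genes are not replicates, so these shares are a description with no test. The direction depended on the score: among the 50% of peaks with the smallest scores in each list, 26.2% of solute carriers and 21.0% of all called genes were in all 4 libraries, and among the other 50% the shares were 9.09% and 14.95%.

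**Figure D1:**
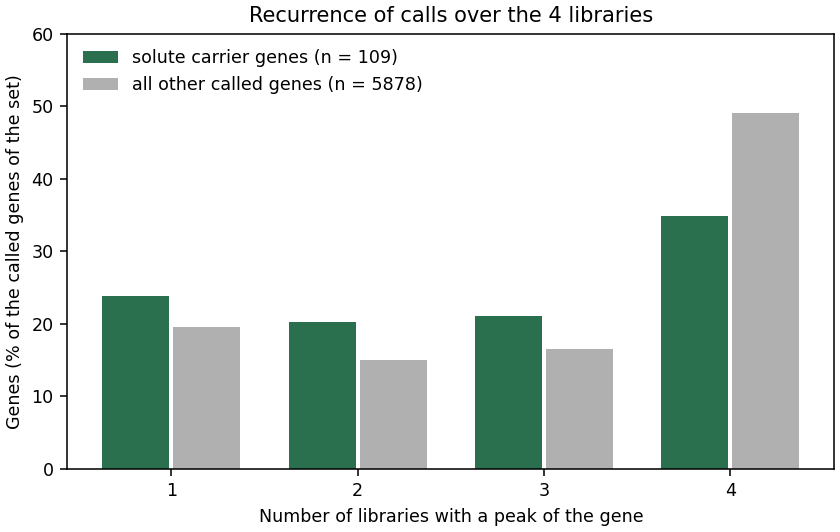
Share of genes (vertical axis, percent of the called genes of each set) with a peak in 1, 2, 3 or 4 libraries (horizontal axis), for the 109 solute carrier genes and the 5878 other called genes. The solute carrier bars are higher at 1, 2 and 3 libraries and lower at 4, where they reach 34.9% against 49.1%.

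The number of solute carrier genes with a peak was highest in innervated 2 and did not separate the groups. Innervated 1 held 64 of the 109 genes, innervated 2 held 87, denervated 1 held 69 and denervated 2 held 71. The means were 75.5 ± 16.3 (SD, n = 2) in innervated and 70 ± 1.41 (SD, n = 2) in denervated muscle, and the denervated values lay between the innervated ones. The difference of -5.5 genes did not exceed the spread between replicates (two-sided exact permutation p = 1, adjusted p = 1 over 18 measures by Benjamini-Hochberg). With 2 libraries against 2 the test cannot go below 0.333. Without innervated 2 the denervated mean was 6 genes higher than the remaining innervated library, so the sign rested on that library.

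As a share of all genes called in the library, solute carriers made up 1.54% in innervated 1, 1.87% in innervated 2, 1.498% in denervated 1 and 1.68% in denervated 2. These shares overlapped between the groups (exact permutation p = 0.667, adjusted p = 1). Innervated 2 also held the most solute carrier genes private to 1 library. Of the 26 genes found in a single list, 10 were in innervated 2, 6 in each denervated list and 4 in innervated 1. Of the 23 genes in 3 lists, 9 were missing from innervated 1, 6 from denervated 2, 5 from denervated 1 and 3 from innervated 2. For comparison, 30.5% of the other genes in a single list were in innervated 2, against 38.5% of the solute carriers.

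**Figure D2:**
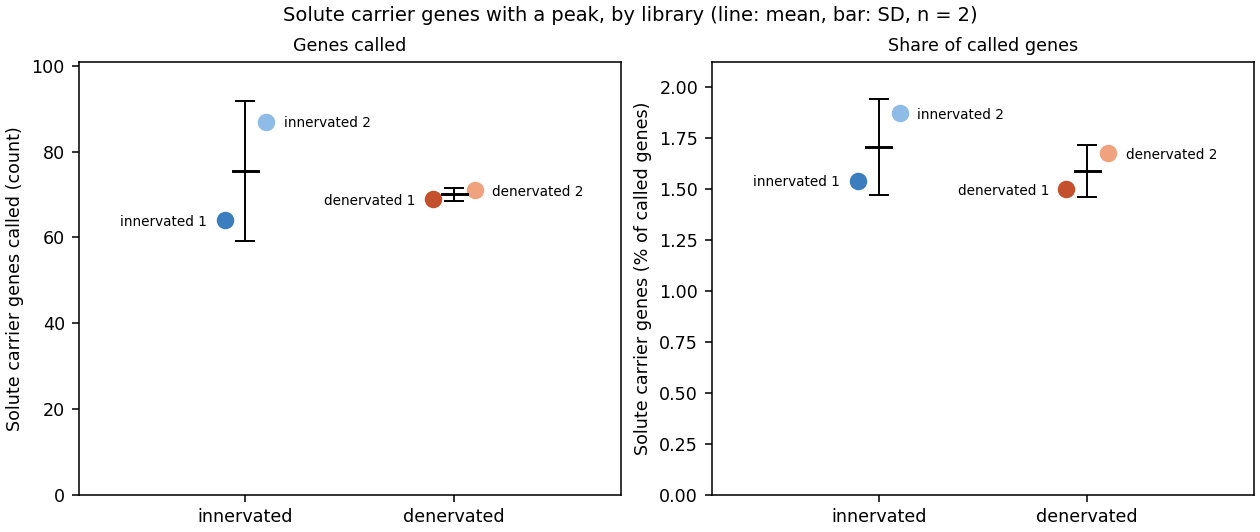
Solute carrier genes with a peak in each library, as a count (left) and as a percent of all genes called in that library (right); points are libraries, lines are means and bars are SD (n = 2). Innervated 2 is highest in both panels, at 87 genes and 1.87%, and the 2 denervated libraries lie between the innervated ones in the count.

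Among genes called in exactly 2 libraries, few were shared by the 2 denervated libraries. Of 22 such solute carriers, 8 were shared by innervated 2 and denervated 2, 6 by both innervated libraries, 5 by innervated 2 and denervated 1, and 1 each by the other three pairs. The pair of both denervated libraries thus held 4.55% of them, or 1 gene, against 23.2% of the other genes in exactly 2 libraries. That gene and the 6 of the innervated pair are the group-specific genes given below, so these counts are not a separate result. The pair of innervated 2 and denervated 2 held 36.4%, against 13.3%.

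The members are described in classes of what they carry. Classes were set by family number, so a class can hold members that carry something else. Among transporters of sugars 10 of 34 RefSeq genes had a peak and 4 were in all 4 libraries. Slc2a1, or GLUT1, the basal glucose transporter, held 1, 1, 1 and 2 peaks in innervated 1, innervated 2, denervated 1 and denervated 2, which joined into 1 region. The peaks covered 743, 495, 545 and 645 bases, and the groups overlapped. Slc2a4, or GLUT4, the insulin-responsive glucose transporter of muscle, had 1 peak, in denervated 2 only, of 248 bases at chr11:69943276-69943523 on the minus strand. Slc5a3, which takes up myo-inositol with sodium, held 3 regions in every library. They overlap the span of Mrps6, a mitochondrial ribosomal protein gene, whose strand was not compared, so their assignment to Slc5a3 is uncertain.

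Transporters of amino acids had 15 of 70 genes with a peak, 7 of them in all 4 libraries. Slc38a2, or SNAT2, which takes up neutral amino acids with sodium, had 1 region that covered 499, 598, 598 and 598 bases in the 4 libraries in the order above. Slc38a10 held the widest region shared by all 4, of 2086 bases, at chr11:120104696-120110504 on the minus strand. Slc7a1, which takes up arginine and lysine, held 2 shared regions. The pair that forms the large neutral amino acid transporter was in fewer lists. Slc7a5, the transporting subunit, had 0, 2, 1 and 1 peaks, and Slc3a2, the heavy chain that carries it to the membrane, had 1, 0, 0 and 0.

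Transporters of carboxylates had 5 of 19 genes with a peak and 1 in all 4 libraries. That gene was Slc16a3, or MCT4, the lactate exporter of glycolytic fibres, with 3, 2, 2 and 2 peaks. Its region shared by all libraries covered 645 and 744 bases in innervated and 298 and 349 bases in denervated muscle. These groups did not overlap, but the region shares bases with the span of Csnk1d, a kinase gene. The strand of Csnk1d was not compared, and widths of 1 region were not tested. Slc16a1, or MCT1, which carries lactate both ways, had 2 peaks in innervated 2 and 0 elsewhere. Slc16a6 had 0, 3, 4 and 5 peaks and Slc16a9 had 0, 4, 3 and 3, so both were missing from innervated 1 alone. Of the 4 regions of Slc16a6, 2 overlap peaks named LOC100503496 on the opposite strand and 1 overlaps the span of Arsg. The strand of spans was not compared, so their assignment is uncertain.

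Transporters of inorganic ions had 14 of 57 genes with a peak and 5 in all 4 libraries. The sodium-calcium exchangers, which remove calcium from the cytosol, carried the most peaks. Slc8a1 had 6, 5, 7 and 3 peaks in 7 regions, and Slc8a3 had 7, 3, 6 and 6 in 5 regions, with 2 regions shared by all libraries in each gene. Slc12a2, or NKCC1, which brings in sodium, potassium and chloride, had 2 peaks in every library. Slc26a2, a sulfate transporter, had 0, 5, 5 and 5 peaks in 5 regions, none of them in innervated 1.

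Metal transporters were called in 17 of 33 genes, and 5 of these were in all 4 libraries. Slc30 proteins move zinc out of the cytosol and Slc39 proteins move it in. Slc30a4 had 2 peaks in every library and Slc39a3 had 5, 6, 3 and 1. Slc39a14, which takes up zinc, iron and manganese, had 1 peak, in denervated 1 only. Slc40a1, or ferroportin, the iron exporter, had 2, 2, 0 and 2.

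Mitochondrial carriers of the Slc25 family had 17 of 47 genes with a peak, 6 in all 4 libraries. Slc25a44, which carries branched-chain amino acids, held 4, 3, 3 and 4 peaks, and 3 of its regions were shared by all libraries. Slc25a51, the mitochondrial NAD+ carrier, had 4, 3, 1 and 2 peaks. Slc25a4, the main ADP-ATP carrier of muscle, had no peak in any list. Neither did the bicarbonate transporter Slc4a4, the taurine transporter Slc6a6, the creatine transporter Slc6a8 or the carnitine transporter Slc22a5.

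The nucleotide sugar transporters of the Slc35 family, which mainly supply the Golgi, had 15 of 27 genes with a peak, 5 of them in all 4 libraries. Organic ion transporters had 9 of 63, with 3 in all 4, among them Slco5a1 with 3 peaks in every library. Slc22a23 had 4, 3, 3 and 5. The lipid class had 3 of 12 genes, 2 of them in all 4. These 2 were Slc33a1, an acetyl-CoA transporter, and Slc44a2, a choline transporter-like protein, so neither is a fatty acid carrier. Vitamin and nucleoside transporters had 3 of 20, with 0 in all 4.

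**Figure D3:**
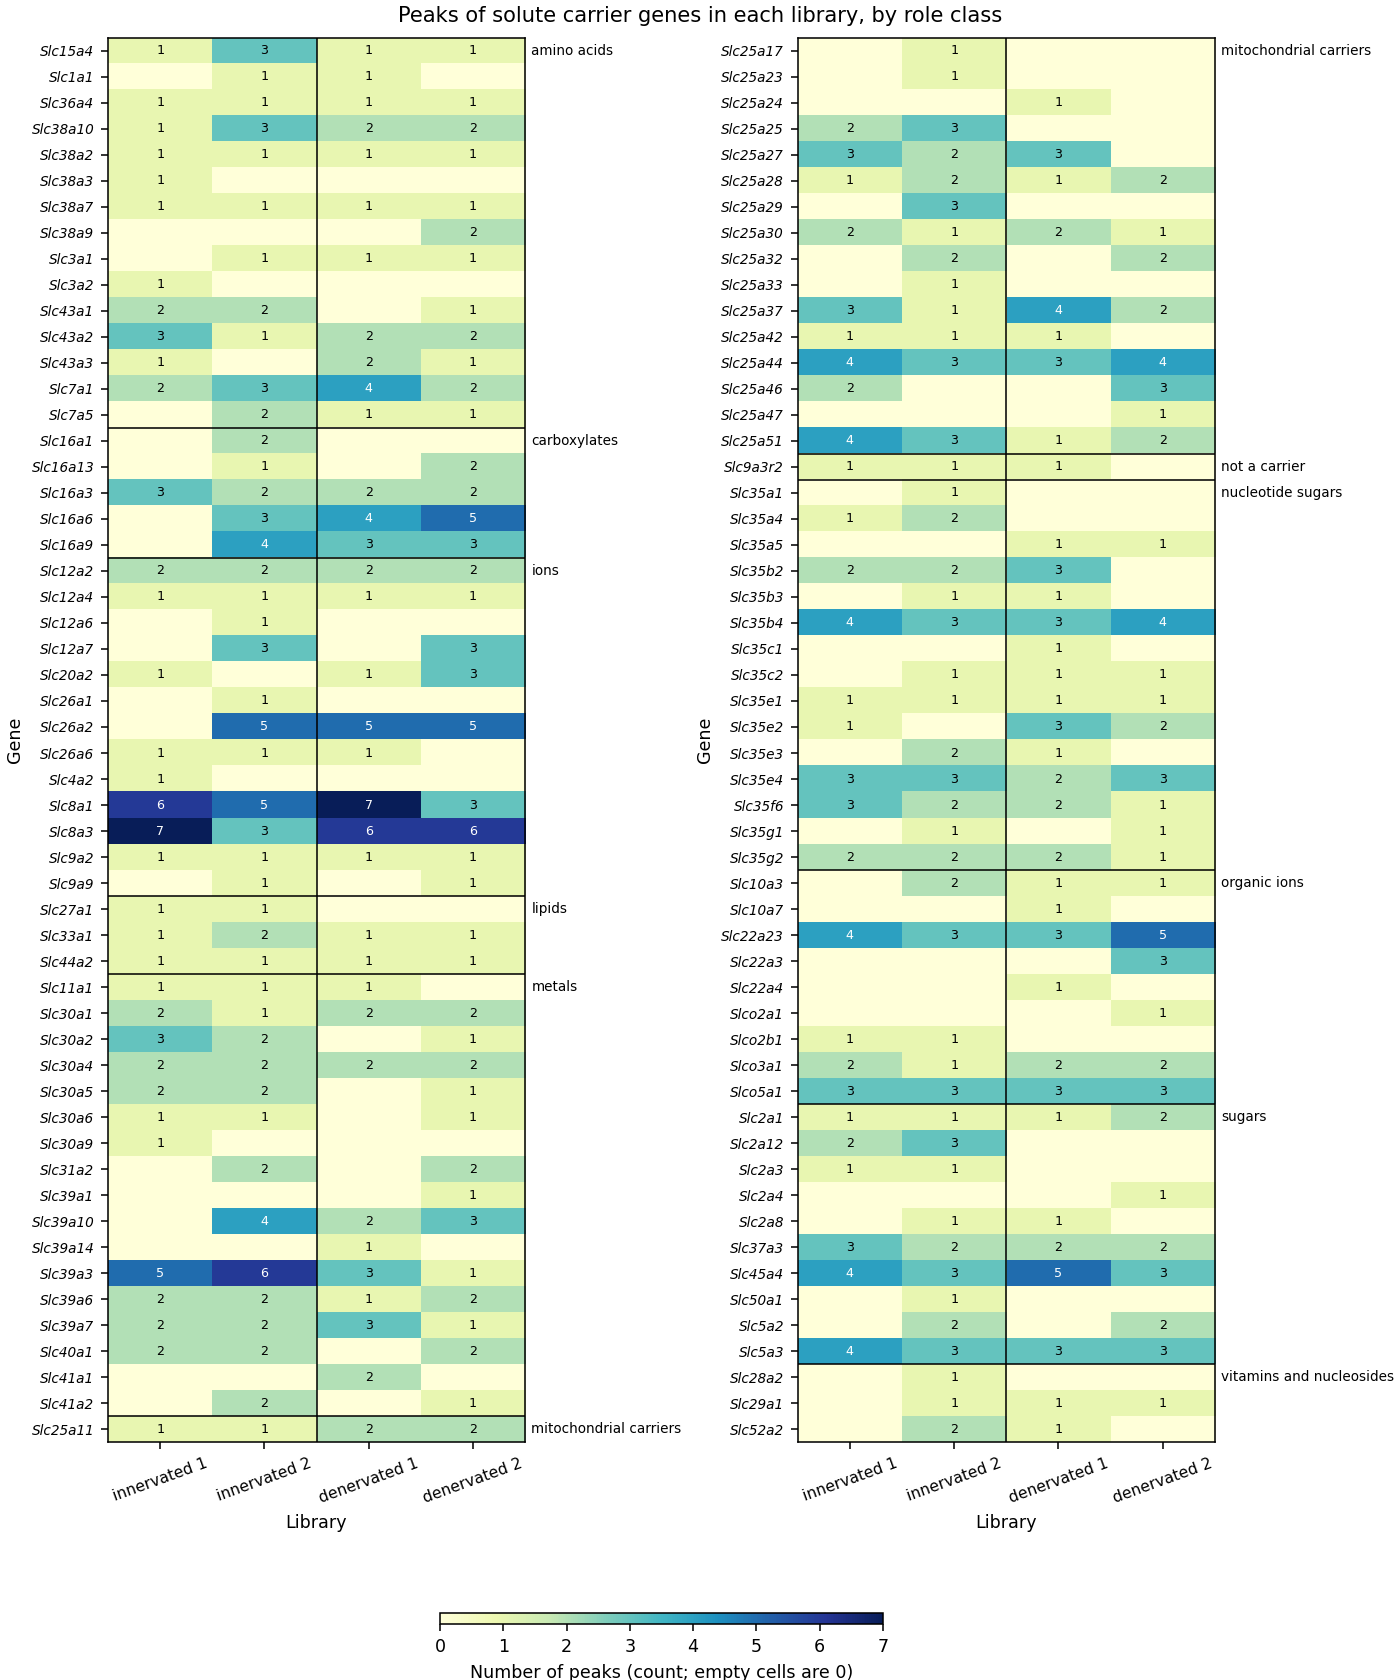
Number of peaks (colour and printed count; empty cells are 0) of the called solute carrier genes reported here (rows, grouped by the class of their family) in each of the 4 libraries (columns). Slc8a1 and Slc8a3 have the highest counts, up to 7, and Slc2a3, Slc2a12, Slc25a25, Slc27a1, Slc35a4 and Slco2b1 are empty in both denervated columns.

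Genes called in both innervated lists and in neither denervated list numbered 6, or 5.50% of the members (95% Wilson interval 2.55 to 11.5%), beside 3.14% of all called genes. In the opposite direction there was 1 gene, or 0.917% (interval 0.162 to 5.01%), beside 3.42% of all called genes. Both intervals hold the share of all called genes. These are differences between lists, not measured changes in methylation. When each list was shortened to the same number of peaks, 3 genes were innervated only and 2 were denervated only, beside 3.15% and 3.86% of all called genes. The shortening left out the peaks with the largest scores, so it also rests on the direction in which the score is read. With innervated 1, innervated 2, denervated 1 or denervated 2 left out in turn, 16, 10, 12 and 11 genes were innervated only and 4, 10, 7 and 7 were denervated only, because a single list then defines one of the groups. Of all called genes, 9.45%, 6.65%, 9.13% and 6.89% were then innervated only and 6.09%, 9.15%, 8.21% and 10.03% denervated only.

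The 6 innervated-only genes included 2 glucose transporters. Slc2a3, or GLUT3, a high-affinity glucose transporter best known from neurons, had 1 region at chr6:122729739-122729986 on the minus strand, of 199 bases in innervated 1 and 248 in innervated 2. Slc2a12, or GLUT12, had 2 regions shared by the innervated lists. They lay at chr10:22664505-22664852, with 348 and 249 bases, and at chr10:22665495-22665693, with 149 and 199 bases, on the plus strand. Neither denervated list held a peak of either gene.

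Slc25a25 encodes a calcium-regulated mitochondrial carrier that exchanges ATP-magnesium for phosphate. Its regions were at chr2:32415185-32415534, with 200 and 350 bases in innervated 1 and 2, and at chr2:32415933-32416281, with 250 bases in each. Slc27a1, or FATP1, takes up long-chain fatty acids and had 1 region at chr8:71586009-71586209 on the plus strand, of 201 and 151 bases. Slc35a4, of the nucleotide sugar transporter family, had a region at chr18:36681668-36681868 on the plus strand, of 201 bases in both. Slco2b1, an organic anion transporter, had a peak in each innervated list, but at different places, so its call rested on no shared region.

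The peaks of these genes differed in where their scores stood in the list, given as a percentile of the list (100 for the smallest score). Slc27a1 stood at percentiles 12.6 and 1.18 in innervated 1 and 2, and Slc35a4 at 3.16 and 1.18. Slc2a3 stood at 57.0 and 7.82. The first region of Slc25a25 stood at 35.8 and 67.9 and its second at 16.5 and 56.6, and both regions of Slc2a12 stood at 35.8 and 28.5. What the score measures is not given in the sources used here. None of the 7 group-specific calls was kept among the smaller-score 50% of the peaks, and 5 were kept in the other 50%.

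The 1 denervated-only gene was Slc35a5, of the nucleotide sugar transporter family. Its region was at chr16:45143930-45144380 on the minus strand, with 401 bases in each denervated list. It stood at percentiles 47.6 and 51.9.

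Regions were also counted, and 10 overlapped the span of another protein-coding gene on either strand, in 8 solute carrier genes. Peaks named for another gene, on the opposite strand, overlapped 4 regions. Of the 205 regions, 53 were in all 4 libraries, or 25.9%, beside 34.6% of all regions. Innervated only were 13, or 6.34%, beside 4.2% of all regions, and denervated only were 2, or 0.976%, beside 3.67%. These counts moved with the definition: with 50% reciprocal overlap, 15 regions were innervated only and 11 denervated only. With innervated 1, innervated 2, denervated 1 or denervated 2 left out in turn, 40, 23, 30 and 18 were innervated only and 7, 21, 21 and 16 denervated only. No share of all regions was computed for these settings, so the counts are not set against one. Of the 13, 7 lay in the innervated-only genes above, and 4 lay in Slc30a2, Slc30a5, Slc40a1 and Slc43a1, which each also had a peak in denervated 2. The other 2 lay beside a region called in all 4 libraries, in Slc25a51 and Slc39a3. In these 2 genes the transcript was thus called in all libraries. The region of Slc25a51 was 101 bases long in both innervated lists, beside a region of 1347 bases shared by all. That of Slc39a3, a zinc importer, had 99 and 199 bases. The other denervated-only region lay in Slc35e2, at chr4:155619396-155619596 on the plus strand, with 151 bases in each denervated list.

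**Figure D4:**
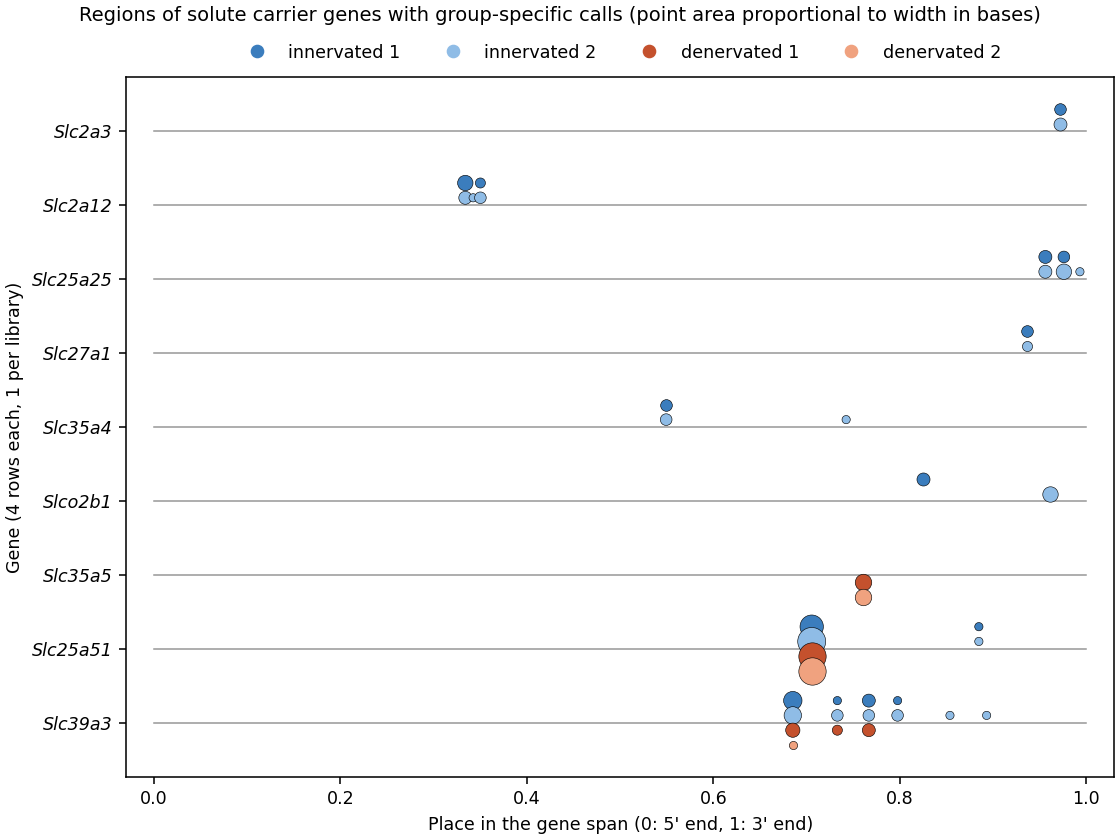
Regions of 9 solute carrier genes by place in the gene span (horizontal axis, 0 at the 5′ end and 1 at the 3′ end), with 1 row of points per library and a point area proportional to the width in bases. Slc35a5 has points in the denervated rows only, the first 6 genes in the innervated rows only, and Slc25a51 and Slc39a3 also hold a region with points in all 4 rows.

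Solute carrier genes held slightly fewer regions each than other genes. The mean was 1.88 against 2.20, with a median of 2 in both sets, and the most in 1 gene was 7 against 27. A single region was held by 48.6% of the members and 43.4% of the others, and 5 or more by 4.59% and 7.86%. The median gene span was 23937 bases against 25239. Peaks per called gene were 2.05 and 1.91 in innervated 1 and 2 and 1.99 and 1.94 in denervated 1 and 2, which overlapped between the groups.

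Peak width was close to that of other genes. The median was 249 bases against 250, and the middle 50% of solute carrier peaks ran from 150 to 400.25 bases. The library medians were 248, 249, 250 and 250.5 bases, or 248.5 ± 0.707 in innervated and 250.25 ± 0.354 in denervated muscle (SD, n = 2). The groups did not overlap, but the difference was 1.75 bases, and its exact permutation p of 0.333 is the smallest the design allows (adjusted p = 1). Spliced peaks, whose blocks are split by an intron, made up 11.2% of solute carrier peaks and 12.6% of the others. Regions called in all 4 libraries covered a median of 598 bases, and those in 1 library 149, which compare with 592 and 149 in other genes.

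Solute carrier peaks lay more often toward the 3′ end than those of other genes. The last 20% of the span, introns included, held 65.4% of 572 peaks against 56.7% of the placed peaks of other genes. The middle 20% held 2.10% against 9.29%, and the first 20% held 12.4% against 11.2%. The higher 3′ share was seen in each library, with 64.9%, 66.9%, 65.0% and 64.5% in the order above. The group means of 65.9 ± 1.40% and 64.7 ± 0.333% (SD, n = 2) did not differ beyond the spread (exact permutation p = 0.667, adjusted p = 1). Peaks of 1 gene share its span and are not independent, so the comparison with other genes carries no test.

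**Figure D5:**
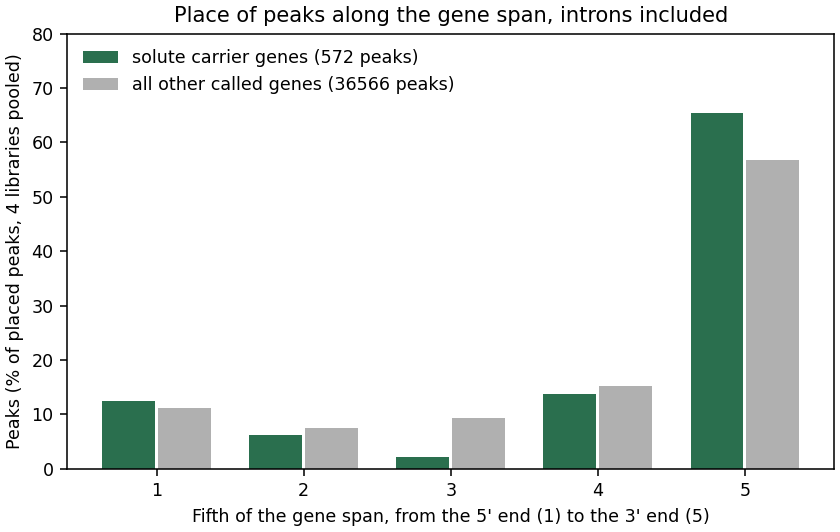
Share of peaks (vertical axis, percent of placed peaks, 4 libraries pooled) in each 20% step of the gene span (horizontal axis, 5′ to 3′) for solute carrier and other genes. The last step holds 65.4% of solute carrier peaks against 56.7%, and the middle step 2.10% against 9.29%.

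Some peaks reached an annotated transcript start. Of 79 members with a RefSeq start window, 3 had a peak within the first 50 bases of the transcript. The share among other called genes was not computed. The start used lay inside the gene span for Slc25a28 and Slc43a2, so it need not be the first start of the gene. The last 30 bases of each window are shown because they are the transcript sequence under a solute carrier peak that could be read here, with GGAC, the most common core of m6A sites, in capitals.
Slc25a28 (chr19:43674832-43674861, minus strand): gggccgcgcctgaggcGGACgcaacggggc
Slc39a7 (chr17:34031641-34031670, minus strand): gcgccgccatgttggtaaaggtatcggggc
Slc43a2 (chr11:75532132-75532161, plus strand): ggaacaagcactaaggaagggtctcgagtg
The sequences are from RefSeq on GRCm38.p6. The Slc25a28 piece, from mitoferrin-2, which brings iron into mitochondria, lay under a peak in innervated 2 and in denervated 2. That of Slc39a7, a zinc exporter of the endoplasmic reticulum, lay under a peak in innervated 2, and that of Slc43a2, an amino acid transporter, in innervated 1. Searched on the transcript strand, GGAC occurred in 1 of these 3 pieces and in 11.6% of 27025 windows of the same length; a match does not show a methylated site.

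Other transporters and partners, listed for comparison, are given by their counts. Of all protein-coding genes 25.4% were called. Of all called genes, 48.8% were in all 4 libraries and 3.14% were innervated only. Of 50 ABC transporters, 12 had a peak, and 4 of these, or 33.3%, were in all 4 libraries. Among them was the cholesterol exporter Abca1, with 2 peaks in every library. Of 38 P-type ATPases, 11 had a peak, and 4 of these, or 36.4%, were in all 4. Atp2b3, a plasma membrane calcium pump, was innervated only with 1, 3, 0 and 0 peaks. Of 11 aquaporins, 2 had a peak, and Aqp4, the main water channel of fast fibres, was innervated only with 3, 2, 0 and 0. Of 13 genes of GLUT4 traffic, 6 had a peak. Tbc1d1, Lnpep and Rab13, or 50% of those called, were in all 4 libraries, while Tbc1d4 was missing from denervated 2. Of 5 partners and chaperones of carriers, 3 had a peak and 0 were in all 4. Slc3a1 and Slc3a2 among these 3 are also members. The 1 region of Slc3a1 overlaps peaks named Prepl on the opposite strand and the span of Prepl, so its assignment is uncertain.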

How the data were processed

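m6A MeRIP-seq captures methylated RNA with an antibody. The 4 deposited lists, 1 per immunoprecipitated library called against its own input, give peaks on mm10 with blocks, strand and gene name. Per the submitters' processing notes, the tools were STAR 2.4.2a and ChIPseeker; no caller or threshold is named in the sources used here. The score column, per the file headers, is the authors' own value, from 0 to 0.023, used only to rank peaks within a list; that small means strong is an assumption. The input libraries had no file used here, and depth is unknown.

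Peaks were linked into regions with Python 3.11.15 scripts, tested on simulated data. A gene or region was innervated only if both innervated lists and neither denervated list held it, and the reverse for denervated only. Place used RefSeq gene spans of GRCm38.p6. Groups of libraries were compared with exact permutation tests (two-sided). The alternatives were the 50% of peaks with smaller or larger scores, equal list lengths, each library left out, other linking rules, no Slco genes and naming by gene body. Named genes were a set list of well-known carriers, all group-specific genes, genes with a group-specific region beside a shared one, the 10 genes with most shared regions, and the widest and narrowest shared region; other genes, and the motif and sequence pieces, were chosen after values were seen. The values of 1 member are not reported here. Members and lists were chosen with earlier results of these data known.

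The correlation of the deviations of same-numbered libraries was 0.00302 over all called genes and 0.0696 over the solute carrier genes. It is taken over genes and cannot show whether same-numbered libraries come from the same animal. The innervated muscle was that of the opposite leg, but the labels do not pair the numbers. The main tests therefore took no pairs, and the replicate block is given as an alternative.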

Additional observations from a re-analysis of the deposited data

How the results depend on the processing

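Of 112 recomputed values, 72 were labelled the same, 39 moved and 1 reversed. The difference in genes per library, -5.5, ran from -17 to 6 with 1 library left out. It reversed to 6 without innervated replicate 2 (1 innervated library, so no spread and no test). Its label follows the sign only, so -17 counts as the same. With the replicate block it was -5.5 (exact sign-flip p = 1); the labels do not pair the numbers.

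The share of genes in all 4 libraries was 26.2% among the smaller-score 50% of the peaks and 9.09% in the other 50%, where all called genes had 21.0% and 14.95%. With the smallest scores the solute carriers were thus above all called genes. The shares also fall by construction, since fewer peaks are kept. With a library left out, 41.4 to 44.8% were in all of the remaining libraries, against 54.6 to 56.7% of all called genes. Both rise by construction, since fewer libraries are required. With the smallest scores, 2 of 61 genes were denervated only (Slc35e2 and Slc45a4) and 3 innervated only. Among all called genes the shares were 4.85% and 5.09%. With equal list lengths the counts were 2 (Slc35a5 and Slc35c2) and 3. With a library left out they were 4 to 10 and 10 to 16. These rise by construction, since 1 list then defines a group. Of the 7 group-specific calls, 0 were kept with the smallest scores and 4 with equal lengths. Denervated-only regions ran from 7 to 21 with a library left out, and were 11 under 50% reciprocal overlap and 1 under naming by gene body. Innervated-only regions ran from 18 to 40, and were 5 with the smallest and 7 with the largest scores. No share of all regions was computed under these settings. Regions per gene were 2.64 under reciprocal overlap, 1.66 when peaks within 100 bases were joined and 1.76 under gene body naming. Median width was 299.5 bases with the smallest scores, 201 with the largest, 250 with equal lengths, 250 as genomic span, and 249 to 250 with a library left out. The share of peaks in the last 20% of the span was 56.3% with the smallest scores, 72.5% with the largest and 69.2% under gene body naming. Shares of other genes in the last 20% were not computed under these settings. Where no cause is given, the cause was not tested.

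Naming by gene body was run in 2 versions. The planned one took strands from a table that lacks 30 of the 109 members, left 179 of 572 peaks unnamed and gave 80 genes, 30 of them in all 4 libraries, 4 innervated only and 1 denervated only. After these values were seen, a second version was added that takes a missing strand from the lists' own peaks. It kept the name of all 572 peaks and gave 110 genes, 39 in all 4, 6 innervated only and 1 denervated only, but it favours agreement with the lists by construction.

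Depth is unknown, and 2 libraries per group limit every comparison. Motifs under peaks beyond the 3 pieces shown, and position along the spliced transcript, were not analysed here.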
